A study of Mus musculus with 6 samples.

Results

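The collagen chain genes of the mouse were examined in the muscular wall of the pregnant uterus (myometrium) of wild-type mice and of mice lacking Tcf23. Members were all rows of the deposited gene table whose symbol is Col, a type number, the letter a and a chain number, which gave 44 genes of 55055. They were grouped as 11 fibrillar chains, 6 basement membrane chains, 9 fibril-associated chains (FACIT) and 18 others. The others were 6 beaded filament chains of type VI, 3 short-chain network formers, 2 multiplexins, 4 transmembrane collagens, the anchoring fibril chain Col7a1 and 2 without a class. Poly(A)-selected RNA of 3 animals labelled TCF23 WT and 3 labelled TCF23 KO was sequenced, 1 library per animal, all at E19.5 in the sample labels and gestational day 19 in the series design. The knockout was made with CRISPR/Cas9 and the labels name no agent for either genotype. The sources used here do not give the strain, the deleted bases, the number of founder lines or the genotype of the fetuses.

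Collagens are secreted as trimers of alpha chains, each with long stretches of a short repeat that begins with glycine. The fibrillar chains build the cable-like fibrils that carry tension, the type IV chains form the sheet-like network of the basement membrane that wraps each smooth muscle cell and vessel, and FACIT chains sit on the surface of fibrils. Collagen of the uterus is known to accumulate during pregnancy and to be broken down quickly after birth.

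Total counts ran from 39939686 to 65036402 per library. Tcf23 had 3360 to 5970 counts in the wild-type libraries and 0 to 2 in the knockout libraries, so the labels matched the counts in 6 of 6. Smooth muscle markers were present in all 6 libraries, but their summed level set knockout replicates 2 and 3 apart. It was 31429.7, 30859.9 and 26676 CPM (counts per 1e+06 reads of the TMM-scaled library size) in wild-type replicates 1, 2 and 3, and 33605, 38199 and 14967 in knockout replicates 1, 2 and 3. Summed endothelial markers were likewise highest in knockout replicate 2 (915.3 CPM) and lowest in knockout replicate 3 (475.4 CPM), against 640.0 to 778.8 in wild-type. The summed placental trophoblast markers stood out in knockout replicate 1, at 281.9 CPM against 1.02 to 38.1 in the other 5 libraries. Most of that sum was Tpbpa (243.7 CPM) and Prl2c2 (32.2 CPM). Prl3b1 and Psg21 were highest in wild-type replicate 2, and Syna was lowest in knockout replicate 1. For several members whose value moves far when 1 of these libraries is left out, the value without it is given.

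Collagen transcripts made up 2.59, 3.65 and 2.43% of all counts in wild-type replicates 1, 2 and 3 and 2.90, 3.54 and 3.23% in knockout replicates 1, 2 and 3. The groups overlapped, at 2.89 ± 0.662% and 3.22 ± 0.318% (mean ± SD, n = 3 per genotype). A few chains carried most of this share. Col1a2, Col1a1 and Col3a1, the chains of the type I and type III fibrils, held on average 22.1, 21.3 and 15.3% of the collagen counts, and the 10 most abundant members held 94.8%. Per kb of transcript, the mean wild-type level was 1296 CPM for Col1a2, 1050.5 for Col1a1 and 758.0 for Col3a1. Next came the type VI chains Col6a1 and Col6a2, at 509.6 and 471.2 CPM per kb, and the type IV chains Col4a1 and Col4a2, at 362.0 and 216.3 CPM per kb. The most abundant FACIT genes were Col16a1 and Col14a1, at 49.4 and 17.2 CPM per kb. Col1a1 was below Col1a2 per kb in each of the 3 wild-type libraries, but the order of this pair depends on the length used.

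**Figure D1:**
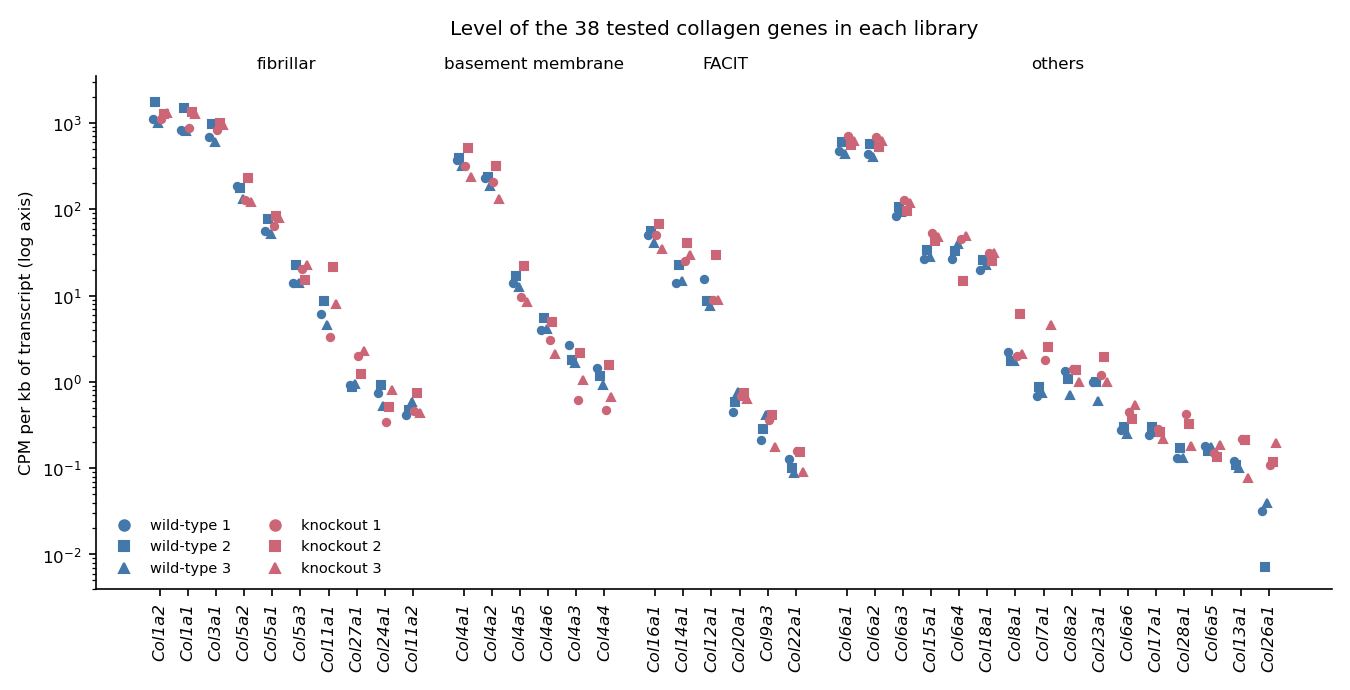
TMM-scaled CPM per kb of transcript (log axis) of the 38 tested collagen genes in each of the 6 libraries, by class, with genotype as colour and replicate number as symbol. Wild-type means span from 1296 CPM per kb for Col1a2 to 0.0259 for Col26a1, and the genotypes overlap in 30 of the 38 genes.

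Of the 44 genes, 38 had enough counts to be tested and 6 did not. No collagen gene passed the test between genotypes. With edgeR's quasi-likelihood test and an adjusted p under 0.05, 0 of 38 were higher in knockout (0.0% of all 19599 genes tested) and 0 were lower (0.0204% of all genes). At an unadjusted p under 0.05, 7 were higher and 0 lower, that is 18.4% and 0% of the tested members, against 5.27% and 3.29% of all genes. Every knockout library was above every wild-type library for 8 members (21.1%, against 7.22% of all genes) and below for 0 (7.01% of all genes). Log2 changes were positive for 28 of 38 members (73.7%, against 52.1% of all genes), with a median of 0.28 against 0.01. DESeq2 on the same counts called 3 members higher (7.89%, against 1.27% of all genes) and 0 lower (0.704% of all genes). Whether these shares differ from those of other genes was not tested. Class medians were 0.19 for fibrillar, −0.25 for basement membrane, 0.28 for FACIT and 0.49 for the others.

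**Figure D2:**
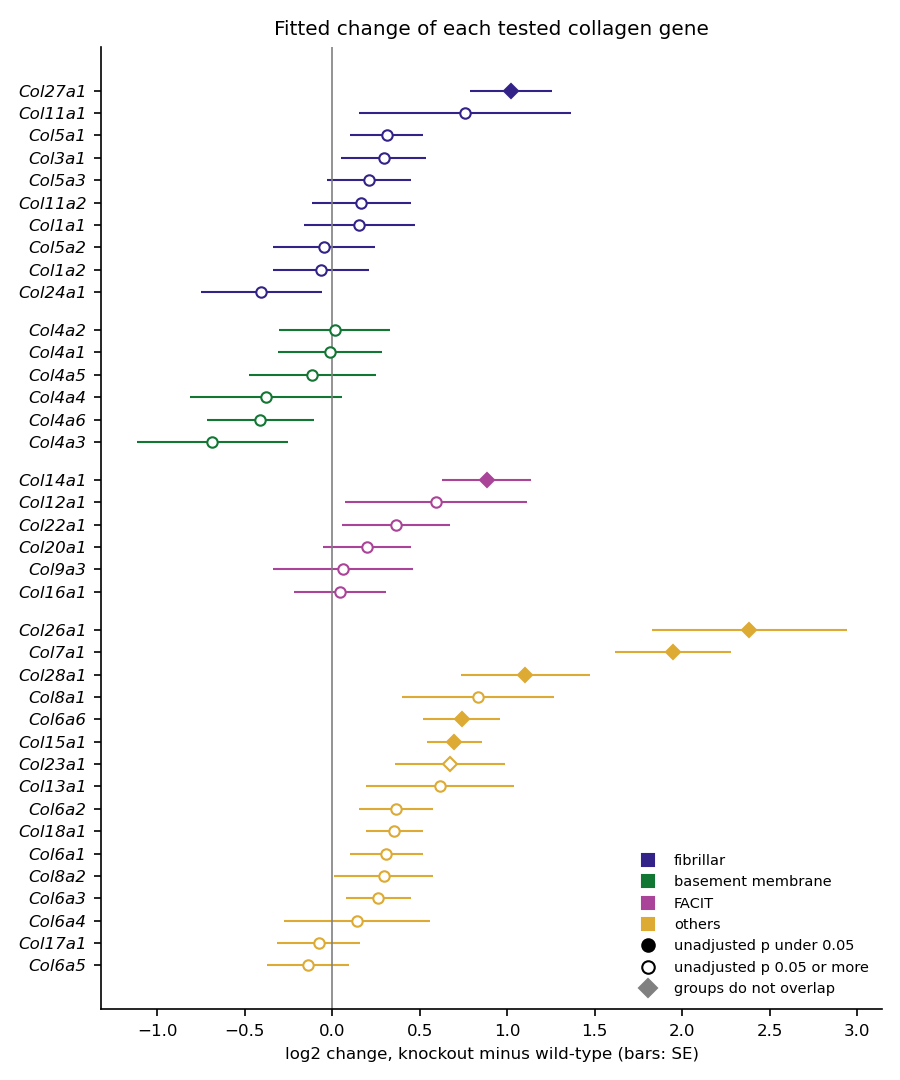
Fitted log2 change (knockout minus wild-type, x axis) with its standard error for each of the 38 tested collagen genes, grouped by class. Filled symbols are the 7 genes at an unadjusted p under 0.05, diamonds the 8 genes whose groups do not overlap, and 5 of the 6 basement membrane chains lie below 0.

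The largest difference among members with a mean CPM of at least 1 was in Col7a1, whose product forms the anchoring fibrils that tie a basement membrane to the matrix beneath it. It lies on mm10 chromosome 9, 108953586 to 108984875, plus strand. Its level was 6.28, 8.07 and 6.92 CPM in wild-type replicates 1, 2 and 3 and 16.6, 23.7 and 41.9 CPM in knockout replicates 1, 2 and 3. The lowest knockout library was thus above the highest wild-type library, and the knockout libraries differed 2.52-fold among themselves. The log2 change was 1.95 ± 0.33 (SE), with an unadjusted p of 0.000489 and an edgeR adjusted p of 0.18. DESeq2 gave an adjusted p of 6.15e-06 and edgeR without a filter on low counts 0.0104. Over all alternatives the adjusted p ran from 6.15e-06 to 0.747, and the log2 change with any 1 library left out from 1.5 to 2.22.

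Col15a1 and Col27a1 were the other members that DESeq2 called. Col15a1 encodes a multiplexin of the basement membrane zone around muscle cells and capillaries (mm10 chromosome 4, 47208161 to 47313167, plus strand). It had 136, 177 and 145 CPM in the wild-type libraries, in replicate order, and 273, 224 and 246 in the knockout libraries. All 3 knockout values were above all wild-type values, with a small spread in each group (log2 0.70 ± 0.16, edgeR adjusted p = 0.285, DESeq2 0.00794, range over alternatives 0.00794 to 0.809). Col27a1, a fibrillar chain best known from cartilage (chromosome 4, 63215435 to 63334991, plus strand), had 6.99, 6.65 and 7.14 CPM in wild-type and 15.3, 9.47 and 17.4 in knockout. Wild-type libraries differed by only 1.07-fold and every knockout library was above them (log2 1.02 ± 0.24, edgeR adjusted p = 0.29, DESeq2 0.0102, range 0.0102 to 0.785). With any 1 library left out, the log2 change stayed within 0.62 to 0.81 for Col15a1 and 0.84 to 1.24 for Col27a1.

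The sequences just upstream of these 3 genes are shown because DESeq2 called them. They are the 250 bases before each RefSeq start (GRCm38.p6, the mm10 assembly, plus strand). None overlaps an annotated exon of GENCODE M21. Many basic helix-loop-helix proteins, the family of Tcf23, are known to bind the E-box. Whether Tcf23 itself binds it was not examined, so the marked letters are not given as Tcf23 sites. Capitals mark the letters CANNTG, a palindrome, so 1 search covers both strands. Col7a1 is at chr9:108953336-108953585, Col15a1 at chr4:47207762-47208011 and Col27a1 at chr4:63215162-63215411.
Col7a1: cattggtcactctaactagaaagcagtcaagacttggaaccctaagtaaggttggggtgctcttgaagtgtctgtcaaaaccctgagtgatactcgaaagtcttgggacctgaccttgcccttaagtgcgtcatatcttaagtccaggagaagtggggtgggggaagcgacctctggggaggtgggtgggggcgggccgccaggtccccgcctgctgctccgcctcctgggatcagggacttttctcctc
Col15a1: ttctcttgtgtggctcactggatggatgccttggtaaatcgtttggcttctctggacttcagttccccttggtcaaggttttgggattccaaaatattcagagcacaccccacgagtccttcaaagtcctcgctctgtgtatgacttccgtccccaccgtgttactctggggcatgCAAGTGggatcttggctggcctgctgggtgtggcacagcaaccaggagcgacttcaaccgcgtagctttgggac
Col27a1: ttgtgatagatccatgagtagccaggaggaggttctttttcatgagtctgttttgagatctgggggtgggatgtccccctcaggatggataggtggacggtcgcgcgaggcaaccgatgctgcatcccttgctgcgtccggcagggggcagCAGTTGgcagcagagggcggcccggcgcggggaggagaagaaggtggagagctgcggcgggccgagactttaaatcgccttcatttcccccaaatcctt
The letters occur 0 times upstream of Col7a1 and 1 time each upstream of Col15a1 and Col27a1. They occur in 66.2% of all 32851 promoter windows of this length and in 50% of the 38 windows of the 35 collagen genes with an entry. A match is a match of letters only.

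Of the remaining members with non-overlapping groups, Col14a1 was the most abundant. It encodes a FACIT chain that binds fibrils and had 90.01, 147 and 95.7 CPM in wild-type replicates 1, 2 and 3 and 164, 261 and 189 in knockout. The knockout libraries began just above the highest wild-type library (log2 0.88 ± 0.25, edgeR adjusted p = 0.365, unadjusted p = 0.00929). Col6a6, a type VI chain, had 2.44, 2.60 and 2.16 CPM in wild-type and 3.98, 3.30 and 4.76 in knockout (log2 0.74 ± 0.22, edgeR adjusted p = 0.383). Col23a1, a transmembrane collagen, had 5.66, 5.68 and 3.43 CPM in wild-type and 6.87, 10.9 and 5.71 in knockout. The lowest knockout library lay only just above the highest wild-type one, and the unadjusted p was 0.0655 (log2 0.67 ± 0.31, and 0.36 without knockout replicate 2). Col28a1 and Col26a1 complete the 8; their mean CPM is below 1, and they are named after their values were seen. Col28a1 had 0.557, 0.732 and 0.553 CPM in wild-type and 1.82, 1.37 and 0.756 in knockout (log2 1.10 ± 0.37). Col26a1 rested on 4, 1 and 6 counts in wild-type and 19, 18 and 22 in knockout (log2 2.38 ± 0.56, edgeR adjusted p = 0.295).

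**Figure D3:**
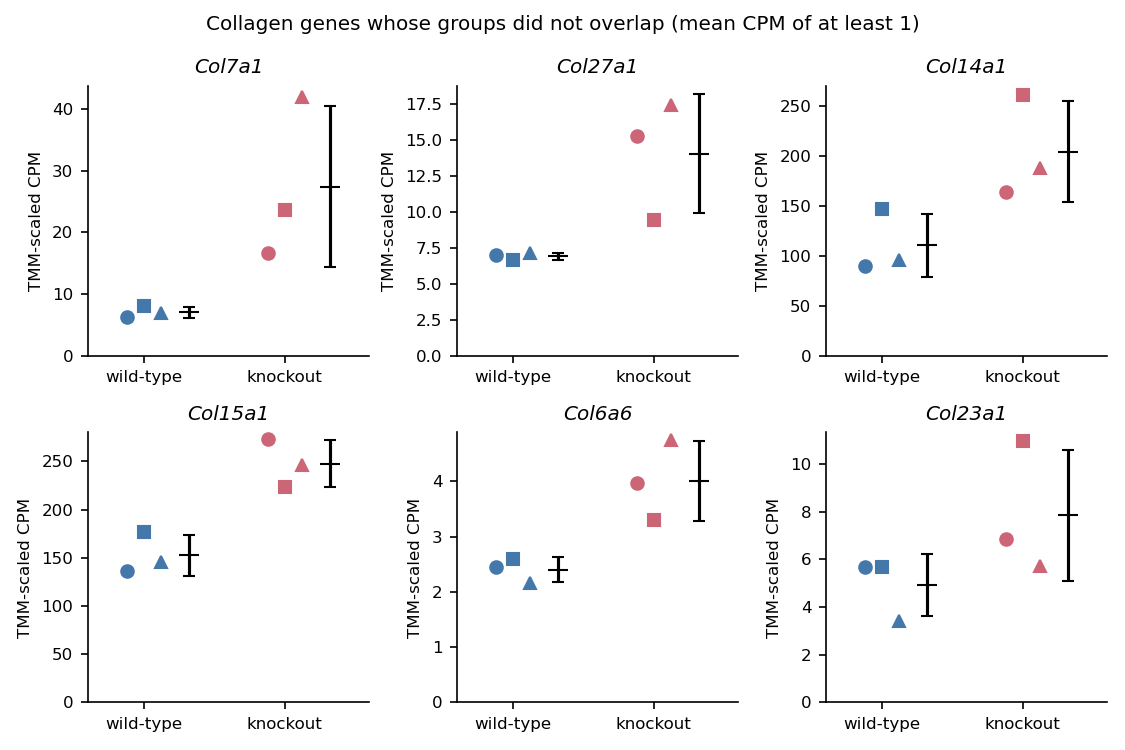
TMM-scaled CPM (y axis, from 0) of the 6 collagen genes with a mean CPM of at least 1 whose groups did not overlap, with each library as a point and the mean ± SD beside each genotype (n = 3). The knockout points lie above the wild-type points in each panel, with the narrowest gap in Col23a1.

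Markers of some other cell types were higher in the same libraries. Of all genes tested, 52.1% had a positive log2 change and 7.22% were higher without overlap. The decidual list was positive in 6 of 6 tested genes, and its summed level did not overlap, at 254.6 to 326.7 CPM in wild-type and 382.5 to 485.5 in knockout, with Prl8a2 at 10.5 ± 6.48 and 58.9 ± 31.3 CPM (mean ± SD, n = 3) and Prl3c1 at 0 in 5 libraries. Cryab made up most of that sum, and without it the sums overlapped, at 59.9 to 85.5 CPM in wild-type and 69.0 to 175.1 in knockout, while Prl8a2 and Prl6a1 did not overlap. Pericyte markers were positive in 7 of 7, with overlapping sums of 471.7 to 530.6 and 399.6 to 881.8 CPM. Uterine epithelial markers were positive in 4 of 8, with sums of 1749 to 4031 and 2113 to 5063 CPM. The highest sum was in knockout replicate 3, where Col7a1 was also highest, but the order differed in other libraries. Wild-type replicate 3 had the sum of 4031 CPM, with Col7a1 at 6.92 CPM. Knockout replicates 1 and 2 had sums of 2871 and 2113 CPM, with Col7a1 at 16.6 and 23.7 CPM. Fibroblast markers were positive in 6 of 12, with sums of 9594 to 10794 CPM in wild-type and 8555 to 11928 in knockout. Of 10 cartilage and bone markers 7 were too low to test, and Matn1, Ibsp and Bglap were at 0.108 CPM or less in every library. Of the 3 tested, Runx2 was higher without overlap, at 3.21 ± 0.323 and 5.51 ± 1.45 CPM (mean ± SD, n = 3), and Sox9 and Acan overlapped. The untested Matn3, Cnmd and Bglap, all at 0.707 CPM or less, were also higher without overlap. Skeletal muscle markers were positive in 5 of 5 tested genes, with sums of 30.3 to 54.9 and 50.4 to 168.6 CPM. Acta1, which overlapped, made up most of each sum, at 20.6 to 43.6 CPM in wild-type and 36.8 to 148.6 in knockout. Tnnt3 and the untested Myh2 were higher without overlap, Myh2 at 0.541 CPM or less. Mesothelial markers were negative in 7 of 8, with sums of 415.9 to 805.8 and 225.1 to 908.7 CPM. Krt19, the 1 positive gene, made up most of each sum, at 255.3 to 636.6 CPM in wild-type and 114.9 to 833.4 in knockout. The overlap of these sums thus mostly describes Krt19, and the sum without it was not taken. At an unadjusted p under 0.05, 5 mesothelial markers were lower (62.5%, against 3.29% of all genes). Of these 5, only Msln did not overlap. Upk3b, Upk1b, Lrrn4 and Bnc1 were at 2.94, 0.321, 0.785 and 0.107 CPM in wild-type replicate 3, within or below the knockout range, and higher in wild-type replicates 1 and 2. The part of these cell types in the collagen values was not tested, and in bulk tissue more cells of a type and more RNA per cell cannot be told apart.

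The abundant fibrillar chains did not separate the genotypes. Col1a1 had 4976, 8845 and 4866 CPM in wild-type replicates 1, 2 and 3 and 5237, 8046 and 7526 in knockout, and Col1a2, its partner in type I collagen, 5916, 9477 and 5399 and 6043, 6775 and 7038. Wild-type replicate 2 was the highest library for both genes, so the wild-type spread covered the knockout values (log2 0.16 ± 0.32 and −0.07 ± 0.27, and 0.49 and 0.22 without wild-type replicate 2). Col3a1, the chain of type III fibrils in extensible tissue, had 3840, 5422 and 3390 CPM in wild-type and 4672, 5613 and 5222 in knockout (log2 0.29 ± 0.24, edgeR adjusted p = 0.847). The type V chains start fibrils and limit their width. Col5a1 had 471, 647 and 432 CPM in wild-type and 539, 713 and 670.5 in knockout (log2 0.31 ± 0.21). Col5a2 had 1232, 1187 and 883 in wild-type and 853, 1544 and 801 in knockout, with 2 knockout libraries below all wild-type libraries and 1 above (log2 −0.05 ± 0.29, and −0.41 without knockout replicate 2). Col5a3 had 84.7 to 137 CPM in wild-type and 93.3 to 139 in knockout. Col11a1, the type XI relative of Col5a1, had the widest knockout range of the 38 tested genes, at 25.1, 164 and 60.7 CPM, a 6.54-fold difference between replicates 2 and 1. Its log2 change was 0.76 ± 0.61 with all libraries and −0.19 without knockout replicate 2. Col24a1 and Col11a2 were at 2.23 to 6.51 CPM in wild-type and 2.37 to 5.71 in knockout, with log2 changes of −0.41 ± 0.35 and 0.16 ± 0.28. Without knockout replicate 3 the log2 change of Col24a1 was −0.77.

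Levels of the type IV chains were split between the knockout animals. All 6 chains were highest, among the knockout libraries, in replicate 2, and 4 of the 6 had their lowest value of all 6 libraries in replicate 3 and the other 2 in replicate 1. Col4a1 and Col4a2, the chains of the common network of vessels and muscle, had 2122, 3405 and 1584 and 1328, 2051 and 845 CPM in knockout replicates 1, 2 and 3. Their wild-type values were 2452, 2617 and 2116, and 1478, 1518 and 1189.9 CPM, with log2 changes of −0.02 ± 0.30 and 0.01 ± 0.32. Without knockout replicate 2 these were −0.37 and −0.36, and without knockout replicate 3 they were 0.20 and 0.27. Col4a5 and Col4a6 had 92.8, 112 and 81.6, and 26.5, 36.7 and 27.0 CPM in wild-type. In knockout they had 63.2, 146 and 55.1, and 20.3, 33.3 and 14.1 CPM.

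Col4a3 and Col4a4, the chains best known from kidney and inner ear, had log2 changes of −0.69 ± 0.43 and −0.38 ± 0.43 (edgeR adjusted p = 0.766 and 0.905). Col4a3 had 22.9, 15.6 and 14.1 CPM in wild-type and 5.28, 18.4 and 8.97 in knockout, and Col4a4 had 14.7, 11.7 and 9.35 and 4.77, 16.0 and 6.71. Knockout replicates 1 and 3 were below every wild-type library for Col4a3, Col4a4, Col4a5 and Col4a6, and replicate 2 was within or above the wild-type range. Without knockout replicate 2, these 4 were the members lower at an unadjusted p under 0.05, with log2 changes of −1.30, −1.05, −0.68 and −0.80, and 6.33% of all genes were lower there. Their smallest edgeR adjusted p was then 0.204. Without knockout replicate 1, the log2 change was −0.35 for Col4a3, −0.06 for Col4a4, 0.08 for Col4a5 and −0.33 for Col4a6. Without knockout replicate 3, it was −0.57, −0.20, 0.13 and −0.17 in the same order. With the replicate number as a block, Col4a6 alone was lower at an unadjusted p under 0.05 (0.0364, edgeR adjusted p = 0.428). The smooth muscle, endothelial and pericyte sums were also highest in knockout replicate 2 and lowest in knockout replicate 3. Knockout replicate 1 held the lowest Col4a3 and Col4a4 values of all 6 libraries. Its smooth muscle and pericyte sums, 33605 and 570.0 CPM, were above every wild-type library. Its endothelial sum, 664.6 CPM, was within the wild-type range. The part of these cell types in the type IV values was not tested.

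**Figure D4:**
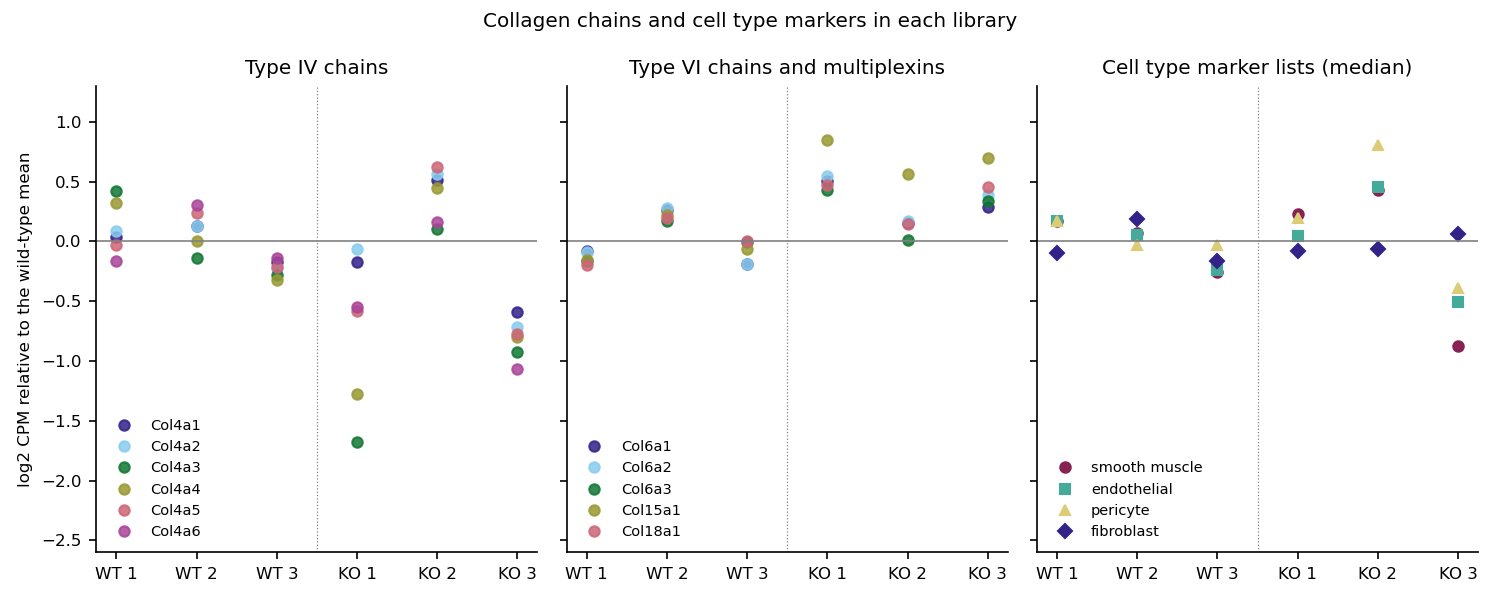
Level minus the wild-type mean on the log2 CPM scale (y axis) in each of the 6 libraries for the type IV chains (left), for type VI chains and multiplexins (middle), and as the median of each cell type marker list (right). Type IV chains and the smooth muscle, endothelial and pericyte lists are high in knockout replicate 2 and low in replicate 3. In knockout replicate 1 the type IV chains are below 0 and these lists above 0. Every gene of the middle panel is above 0 in all 3 knockout libraries.

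The 6 type IV genes lie as head-to-head pairs on mm10. Col4a2 (plus strand) starts at chromosome 8, 11312805, and Col4a1 (minus strand) at 11312826, so the annotated genes overlap by 22 bases. Col4a3 starts at chromosome 1, 82586976, 127 bases from the start of Col4a4, and Col4a5 at chromosome X, 141475385, 1309 bases from the start of Col4a6. The ratio within each pair, per kb, was also compared. Col4a1 was 1.62, 1.68 and 1.73 times Col4a2 in wild-type and 1.56, 1.62 and 1.83 times in knockout, while the knockout libraries differed 2.15-fold in Col4a1 and 2.43-fold in Col4a2. Col4a3 was 1.57 to 1.85 times Col4a4 in wild-type and 1.31 to 1.58 times in knockout, and Col4a5 was 3.08 to 3.57 and 3.17 to 4.45 times Col4a6.

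Apart from Col14a1, FACIT genes overlapped between genotypes. Col16a1 had 265, 295 and 212 CPM in wild-type and 262, 356 and 178 in knockout (log2 0.04 ± 0.26). Its log2 change was −0.22 without knockout replicate 2 and 0.26 without knockout replicate 3. Col12a1, a FACIT chain of tissue under tension, had 179, 99.5 and 87.0 CPM in wild-type and 104, 345 and 103 in knockout. Knockout replicate 2 was thus 3.35 times the lowest knockout library, and the log2 change of 0.59 ± 0.52 was −0.23 without it. Col20a1, Col22a1 and Col9a3 were at 0.537 to 3.44 CPM, with log2 changes of 0.06 to 0.36. Counts of Col20a1 are uncertain, since an overlapping annotated gene has 394% of its counts.

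Type VI collagen, which forms beaded filaments around cells, had its 3 main chains high in knockout replicates 1 and 3. Col6a1 had 1965, 2483 and 1820.5 CPM in wild-type and 2932, 2301 and 2531 in knockout, and Col6a2 1732, 2238 and 1612 and 2694, 2069 and 2418. Col6a3 had 854, 1071 and 949 CPM in wild-type and 1284, 959.7 and 1207 in knockout. For each of the 3, knockout replicates 1 and 3 were above all wild-type libraries and replicate 2 was not (log2 0.31 ± 0.21, 0.36 ± 0.21 and 0.26 ± 0.19, with edgeR adjusted p = 0.78, 0.742 and 0.792). Knockout replicate 2 was thus the lowest knockout library for these chains and the highest for all type IV chains. It was also lowest for Col6a4, at 339, 108 and 358 CPM in knockout against 194, 241 and 294 in wild-type (log2 0.14 ± 0.42, and 0.52 without knockout replicate 2). Col6a5, next to Col6a4 and Col6a6 on chromosome 9, had 1.48 to 1.69 CPM in wild-type and 1.26 to 1.71 in knockout.

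The remaining classes held lower genes. Col18a1, the multiplexin whose end fragment is endostatin, had 111, 146 and 128 CPM in wild-type and 177, 141 and 175 in knockout, with overlap through replicate 2 of each genotype (log2 0.35 ± 0.16, unadjusted p = 0.0617). The short-chain genes Col8a1 and Col8a2, of vessel walls, had log2 changes of 0.83 ± 0.44 and 0.29 ± 0.28. The first of these rested on knockout replicate 2, at 31.4 CPM against 10.2 and 10.7 in the other knockout libraries, and was 0.09 without it. The transmembrane genes Col13a1 and Col17a1 had 0.244 to 1.70 CPM. The 6 untested genes were Col2a1, Col9a1, Col9a2, Col10a1, Col19a1 and Col25a1, of which types II, IX and X are known from cartilage. Col9a1 had 0 counts in all 6 libraries, Col19a1 0 in 4, and the other 4 at most 19 counts in any library.

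Chains that assemble together, and Col3a1 against Col1a1 of another collagen type, were compared within each library, which removes the scaling between libraries. The ratio of Col1a1 to Col1a2 per kb was 0.759, 0.842 and 0.813 in wild-type replicates 1, 2 and 3 and 0.781, 1.07 and 0.964 in knockout. Knockout replicates 2 and 3 were above the wild-type range and replicate 1 within it (two-sided exact permutation p = 0.3, n = 3 per genotype). Within same-numbered pairs the knockout ratio was above the wild-type ratio in 3 of 3, with an exact sign-flip p of 0.25, the smallest that 3 pairs allow. The Col5a1 to Col5a2 ratio was 0.302, 0.429 and 0.385 in wild-type and 0.498, 0.364 and 0.660 in knockout (exact permutation p = 0.3). The Col6a1 to Col6a2 ratio was the steadiest, at 1.07 to 1.09 in wild-type and 1.01 to 1.07 in knockout (exact permutation p = 0.2). Col3a1 to Col1a1 was 0.653 to 0.822 and 0.739 to 0.951, and Col6a3 to Col6a1 was 0.175 to 0.212 and 0.169 to 0.194. All 6 ratios tested, among them Col4a1 to Col4a2, overlapped between genotypes, with Benjamini-Hochberg adjusted p of 0.6 to 1. A design of 3 against 3 allows no exact p below 0.1.

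**Figure D5:**
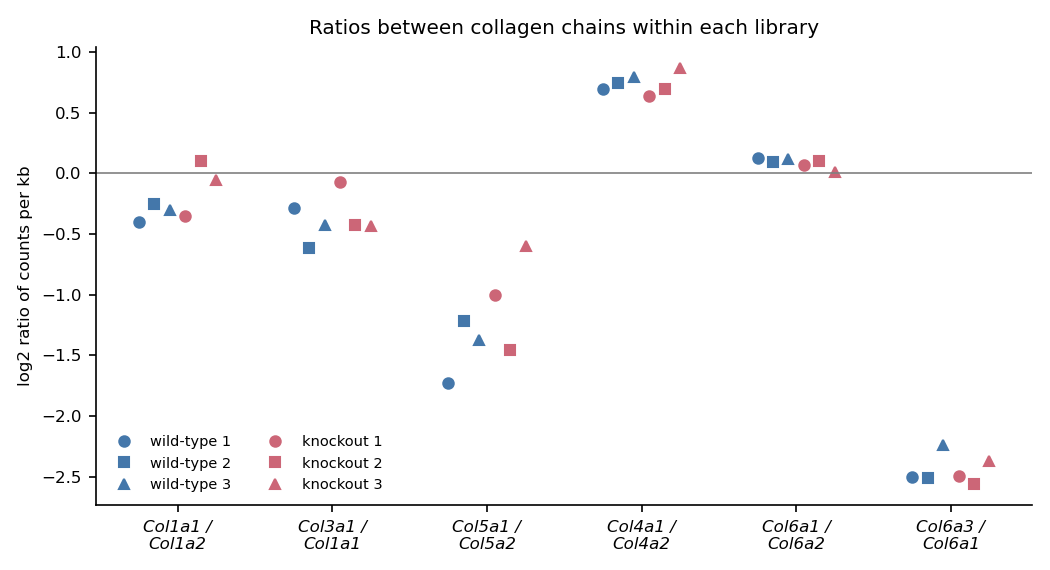
Log2 ratio of counts per kb of transcript between the chains of 6 pairs, in each of the 6 libraries, with genotype as colour and replicate number as symbol. Col4a1 to Col4a2 and Col6a1 to Col6a2 vary least over the libraries and Col5a1 to Col5a2 most, and the genotypes overlap in every pair.

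Genes that modify, assemble, bind or break down collagen gave 62 tested genes in 6 lists. In edgeR 0 passed the adjusted threshold, against 0.0% higher and 0.0204% lower of all genes. DESeq2 called 1 higher (Itga10, 1.61% against 1.27% of all genes) and 1 lower (Colgalt2, against 0.704% of all genes). Before adjustment, 6 were higher and 8 lower with p under 0.05, that is 9.68% and 12.9% against 5.27% and 3.29% of all genes. Groups did not overlap for 7 higher and 9 lower, that is 11.3% and 14.5% against 7.22% and 7.01% of all genes. Among 20 chain modification and folding genes, 1 was higher and 2 were lower. Colgalt2, which adds galactose to hydroxylysine of collagen, had 15.4, 18.9 and 13.3 CPM in wild-type and 4.65, 3.39 and 3.12 in knockout (log2 −2.09 ± 0.22, edgeR adjusted p = 0.0567). The prolyl hydroxylase subunit genes P4ha2 and P4ha3 had 46.2 to 49.7 and 47.8 to 53.4 CPM in wild-type, and 55.3 to 74.9 and 26.6 to 38.04 in knockout, with no overlap in either (log2 0.45 ± 0.14 and −0.60 ± 0.16). Of 7 tested propeptide cleavage genes 2 were lower, the protease gene Tll1 (22.5 ± 3.77 to 11.8 ± 4.09 CPM, mean ± SD, n = 3) and the enhancer gene Pcolce2 (5.42 ± 1.13 to 3.46 ± 0.780 CPM). Of 5 crosslinking genes 0 reached that level, the smallest p being 0.0672 for Loxl4.

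By the same threshold, 2 of 9 tested collagen receptor genes were higher (22.2%) and 1 was lower (11.1%). Of all genes, 5.27% were higher and 3.29% lower. Itga10 encodes an integrin chain that binds collagen, and had 6.64 ± 0.722 and 14.9 ± 6.84 CPM. Mrc2, a receptor that takes up collagen for breakdown, had 121 ± 15.0 and 166 ± 13.8 CPM, and the integrin gene Itga2 82.9 ± 26.2 and 46.6 ± 19.3 CPM. Of 12 tested fibril partner genes, 0 were higher and 3 lower (25%). These were the small proteoglycan genes Lum (829, 964 and 664 CPM in wild-type, 549.7, 489.6 and 546 in knockout) and Ogn, and Thbs1, a matrix glycoprotein gene (1511, 966 and 1041 CPM in wild-type, 254, 758 and 189 in knockout). Of 9 tested breakdown genes, 3 were higher (33.3%) and 0 lower. The 3 were the collagenase genes Mmp8 and Mmp13, both under 1.2 CPM in every library, and the inhibitor gene Timp1 (34.4 ± 5.71 to 60.4 ± 17.2 CPM). For these 14 genes the edgeR adjusted p ran from 0.0567 for Colgalt2 to 0.561 for Itga2.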

How the data were processed

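Poly(A)-selected, directional libraries of myometrium RNA were sequenced, per the labels' protocols. HISAT2 2.2.1, DESeq2 2.11.40.7, FastQC 0.73, HTSeq 0.9.1 and mm10 are listed, per the submitters' processing notes, without what each did. The sources used here do not give the annotation or the strand setting. The authors deposited raw counts of each Ensembl gene in 6 tables and normalized values in 1 more. In that deposited table each value is a signal equal to the count times 1 constant per library (0.804 to 1.26), and gene starts there are 0-based (1-based in the text).

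The test was edgeR 4.0.16 in R 4.3.3 (filterByExpr, TMM, quasi-likelihood test of genotype alone, Benjamini-Hochberg over all 19599 genes). Alternatives were other scalings and filters, DESeq2 1.42.0 on the tested genes, limma 3.58.1 (voom, and log2 of normalized values plus 1), a replicate block and leaving out each library. Log2 changes are given ± standard error. Levels per kb use the GENCODE M21 transcript with the longest coding sequence. Of 44 members, 13 share exon bases with another annotated gene. Library medians in the plot use log2 of CPM plus 0.1. Of the fits, only the main edgeR fit was run on simulated counts, and its outcome is not given here.

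Members, gene lists and tests were chosen with earlier results of these data known. Values in each library were to be given for members with a mean CPM of at least 1 that had p under 0.05 or non-overlapping groups, for the 4 fibrillar, 2 basement membrane, 2 FACIT and 4 other members with the highest counts per kb, for the chains in the ratios, and for up to 4 genes at p under 0.05 from each pathway list. Further members given in full were chosen after their values were seen. Titles give both genotypes replicate numbers 1 to 3. Deviations from the group means correlated across genes at 0.147, 0.196 and 0.217 in same-numbered pairs and at −0.223 to 0.0611 in other pairs. These deviations sum to 0 within each group, so the correlations are not independent of one another. The numbers were used to pair the libraries only in the replicate block and the sign-flip test, and the main test left them out. The numbers come from the titles, but the labels do not say what links same-numbered libraries. Any such link was seen only in these correlations. No library was a copy of another: between replicates, the chi-square of the counts was 36.6 to 239 per degree of freedom.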

Additional observations from a re-analysis of the deposited data

How the results depend on the processing

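No member passed an adjusted p under 0.05 in either direction with edgeR under other scalings, the stricter filter, the replicate block, an adjusted p under 0.1 or with any 1 library left out, nor with limma. The exceptions were DESeq2, with 3 higher (Col7a1, Col15a1 and Col27a1), and edgeR with no filter on low counts, with 1 higher (Col7a1); the cause was not tested. The number higher at an unadjusted p under 0.05 ranged from 5 with the stricter filter to 10 without knockout replicate 3. It was 9 without knockout replicate 2. There 6.84% of all genes were higher and 6.33% lower, against 5.27% and 3.29% with all libraries. The share of all genes was not taken in the other settings, so those counts have no background beside them. The number lower was 1 with the replicate block (Col4a6) and 0 to 4 with 1 library left out: 4 without knockout replicate 2 (Col4a3, Col4a4, Col4a5 and Col4a6) and 1 without knockout replicate 3 (Col24a1). The replicate block changed no call at the adjusted threshold. The median log2 change stayed within 0.19 to 0.35. Of 19 single genes followed, 14 kept the sign of their log2 change in every setting, and the 5 exceptions were Col1a2, Col4a1, Col4a2, Col5a2 and Col16a1. With 1 library left out, the log2 difference in the Col4a1 to Col4a2 ratio ran from −0.0784 to 0.0369 and that of Col6a3 to Col6a1 from −0.108 to 0.0342, both crossing 0. With the union of exons as length, chosen after seeing the data, wild-type Col1a1 was 0.77 log2 above Col1a2 per kb, where the transcript length put it below. Col26a1 and the 6 untested members are limited by counts, at most 22 in any library.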
